A study of Mus musculus with 6 samples.

Results

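Mitochondrial complex I is covered here by 46 protein-coding genes, all those of the deposited count table whose names start with Nduf, out of 54532 genes in the table. They comprise 38 genes named as structural subunits and 8 assembly factors, whose names start with Ndufaf. All 46 had enough counts to be tested, among 13290 tested genes. The cells were L929, an established mouse fibroblast line of wild-type genotype that is widely used for its sensitivity to tumour necrosis factor. The 3 treated libraries, titled TNF-α, came from cells given TNF-α at 10 ng/ml together with actinomycin D, an inhibitor of transcription, at 1 µg/ml for 12 hours. The 3 control libraries are labelled as controls of the same line and genotype. The labels give 1 treatment text for all 6 samples and do not say whether the control cells received a vehicle or actinomycin D, so the contribution of each agent cannot be told apart. Nothing states that the libraries of a group came from separate cultures, so each p-value reflects only how far these libraries differ, which may be technical.

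Complex I, or NADH:ubiquinone oxidoreductase, is the entry point of electrons from NADH into the respiratory chain of the inner mitochondrial membrane, and it pumps protons as it passes them to ubiquinone. Its catalytic core is shared with bacteria; nuclear genes encode the core of the matrix arm, where NADH is oxidised and iron-sulfur clusters carry the electrons, and mitochondrial DNA encodes the proton-pumping core of the membrane arm. Many accessory subunits, all nuclear, surround that core, and assembly factors help to build the enzyme without remaining in it.

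The libraries held 16056207 to 18036322 counts, and the members had between 58 (Ndufaf1) and 12614 (Ndufa4) counts in a library. Normalisation factors (trimmed mean of M values, TMM) were 0.64 to 0.80 in the treated libraries and 1.34 to 1.53 in the controls, and ribosomal protein genes took 17.8 to 22.3% of counts in the treated libraries and 7.27 to 8.53% in the controls. Of 9 tested fibroblast markers, 7 were higher and 2, Pdgfra and Pdgfrb, lower in the treated libraries. The sum of the fibroblast markers was 18060 to 21264 CPM (counts scaled for library size and TMM factor) in treated libraries and 6270 to 8130 CPM in controls. Thy1, too low to be tested, was at 0 in every treated library and at most 0.16 CPM in any control. The macrophage markers Cd68 and Lyz2 were higher in the treated libraries, at means of 25.7 and 24.1 CPM there, against 1.85 and 1.82 CPM in the controls. Csf1r, with means of 0.93 CPM in treated libraries and 0.66 CPM in controls, did not pass the test. The sum of the 5 macrophage markers was 43.9 to 55.4 CPM in treated libraries, against 3.88 to 4.80 CPM in controls. The defining genes Ptprc and Adgre1 were at 0 in every treated library and at most 0.041 CPM in any control. Epithelial markers summed to at most 0.88 CPM in any treated library and 0.17 CPM in any control, and endothelial markers to at most 0.46 and 0.41 CPM. In bulk RNA, fewer cells of a kind and less RNA per cell cannot be told apart, and every level below is relative to the rest of the library.

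The structural genes were higher in the treated libraries almost without exception, whereas the assembly factors split. With TMM scaling, 37 of the 38 structural genes rose, none fell and Ndufs7 did not pass the test (edgeR quasi-likelihood test, adjusted p of 0.05 over all tested genes). Of the 8 assembly factors, 4 rose, 3 fell and Ndufaf6 did not pass. Among all tested genes 34.6% were called higher and 40.2% lower, so the split of the 8 assembly factors was near that of all tested genes. The median log2 fold change, treated over control, was 2.37 for the structural genes, with a range of 0.45 to 3.67, and 0.54 for the assembly factors, with a range of -1.34 to 1.98, against -0.18 for all tested genes. In 37 of the 38 structural genes every treated library was above every control library, a pattern found in 35.9% of tested genes; 4 assembly factors showed it too, and 3 had every treated library below every control, as did 42% of tested genes.

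The direction depends on what is taken as constant. Scaling by library size moved the median of all tested genes by -1.04 on the log2 scale, and holding the ribosomal protein genes equal moved it by -2.33. By library size the structural genes had a median of 1.30, with 33 called higher and 1 called lower, where 17.1% of tested genes were called higher and 59.6% lower. With mitochondrial mRNA held equal their median was 1.80, with 33 called higher and 0 lower, where 19.3% of tested genes were called higher and 46.6% lower. With the ribosomal protein genes fixed, their median was -0.013, with 8 called higher and 8 called lower, where 2.2% of tested genes were called higher and 81.6% lower. Measured from the all-gene median, the structural genes stood 2.54 higher with TMM, 2.52 by library size and 2.49 with the ribosomal protein genes fixed. The gap between the median of the structural genes and that of the assembly factors was 1.83 with TMM and 1.76 to 1.94 over the alternatives that left gene length uncorrected. Changing the scaling moves all genes by nearly the same amount. Rescaling alone could therefore alter neither the distances from the all-gene median nor this gap by much.

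**Figure D1:**
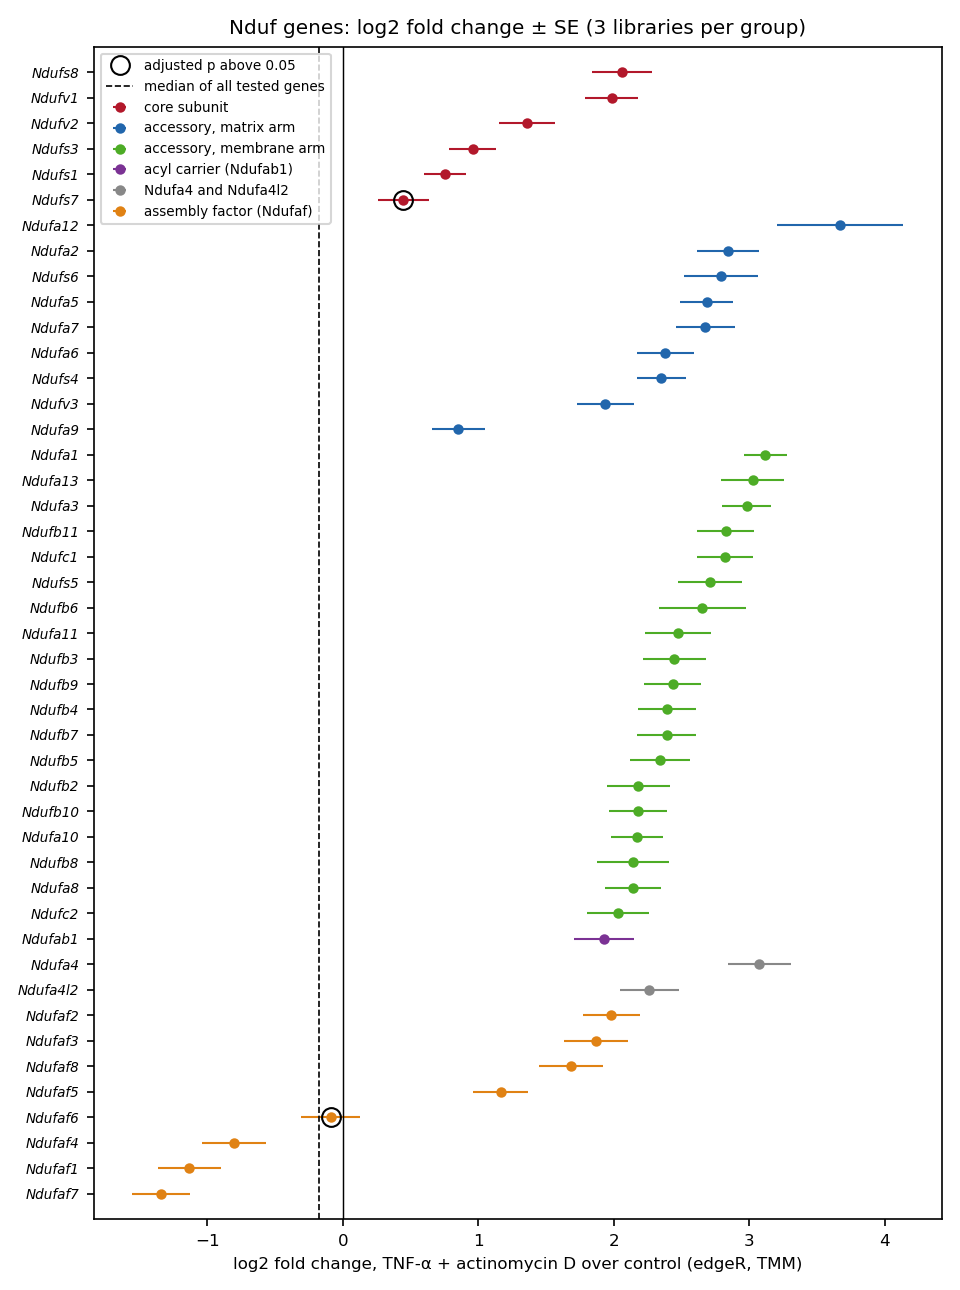
Log2 fold change (TNF-α and actinomycin D over control, horizontal axis) of 45 of the 46 Nduf genes, as the edgeR estimate with its standard error, grouped by role from core subunits at the top to assembly factors at the bottom; the dashed line is the median of all tested genes and black rings mark the 2 genes that did not pass the test. The structural genes lie between 0.45 and 3.67 and the assembly factors between -1.34 and 1.98 with TMM scaling; holding ribosomal protein genes equal puts the median structural gene at -0.013.

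The 7 nuclear core subunits form the electron path of the matrix arm. Of these, 6 rose and none fell, with a median log2 fold change of 1.36. Ndufv1, which binds NADH and its flavin cofactor, had 404, 399 and 275 CPM in the treated libraries, against 107, 78.9 and 86.6 CPM in the controls (log2 fold change 1.99 ± 0.20 SE, adjusted p = 5.01e-06). Ndufv2, an iron-sulfur subunit beside it, had 284, 224 and 160.0 CPM in treated libraries and 96.3, 80.5 and 83.1 CPM in controls (1.36 ± 0.20, adjusted p = 0.000116). Ndufs1, the largest iron-sulfur subunit of that NADH-oxidising module, had 120.4, 102 and 136 CPM in treated libraries and 68.8, 70.6 and 73.3 CPM in controls (0.75 ± 0.15, adjusted p = 0.000971). For these genes every treated library exceeded every control; treated replicate 3 was lowest for Ndufv1 and Ndufv2 but highest for Ndufs1.

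The module that hands electrons to ubiquinone holds the remaining core subunits, among them Ndufs8, Ndufs3 and Ndufs7. Ndufs8 had 287, 231 and 164 CPM in treated libraries, against 66.2, 45.5 and 51.6 CPM in controls (log2 fold change 2.06 ± 0.22, adjusted p = 1.16e-05), a change within its SE of that of Ndufv1. Its groups did not overlap. Ndufs3 had 107, 113 and 79.6 CPM in treated libraries and 58.0, 48.2 and 47.9 CPM in controls, a separate pair of groups with a smaller change (0.96 ± 0.17, adjusted p = 0.000451). Ndufs7, which holds the terminal iron-sulfur cluster, had 138, 137 and 93.7 CPM in treated libraries, against 106, 78.6 and 85.8 CPM in controls. It was the only structural gene whose groups overlapped, treated replicate 3 lying below control replicate 1 (0.45 ± 0.19, adjusted p = 0.0503), and it passed the test without either of those libraries (0.58 and 0.55). Ndufs7 was also called higher with all 6 libraries in 6 alternatives, at 0.44 to 0.61 with adjusted p of 0.0094 to 0.0287. Its call reversed to lower by library size (-0.61, adjusted p = 0.00289). Fixing the ribosomal protein genes also made Ndufs7 lower (-1.92, adjusted p = 1.76e-05). So did an offset for principal transcript length (-0.75, adjusted p = 0.00472). With library-size scaling Ndufs1 and Ndufs3 had log2 fold changes of -0.28 and -0.10, and Ndufv2 had 0.29 (adjusted p = 0.0955).

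Around the matrix arm, all 9 accessory subunits rose with TMM scaling, with a median log2 fold change of 2.67. Ndufa12, on chromosome 10 (chr10:94198720-94221443 of GRCm38, forward strand), showed the largest change of all 46 genes with TMM scaling and also the least even treated replicates; with the length offset it had 2.86, next to 2.92 for Ndufb5 and 2.88 for Ndufb2. It had 363, 262 and 78.2 CPM in the treated libraries, from 4109, 2966 and 1024 counts, against 20.95, 19.0 and 15.3 CPM in the controls (3.67 ± 0.47, adjusted p = 4.82e-05). Its highest treated library was 4.64 times its lowest, where the next most uneven structural gene, Ndufb6, had a ratio of 2.63 and the median structural gene 1.66. Leaving out 1 library at a time gave Ndufa12 log2 fold changes of 3.14 to 4.05. Ndufa9, at the junction of the 2 arms, changed least of the matrix arm accessory subunits, with 117, 90.9 and 74.6 CPM in treated libraries and 60.1, 43.7 and 52.5 CPM in controls (0.85 ± 0.20, adjusted p = 0.00216). Its treated libraries were all above its controls with TMM, while library-size scaling turned its log2 fold change to -0.20. The other 7, among them Ndufs4 (2.35 ± 0.18), known from Leigh syndrome, and Ndufs6 (2.79 ± 0.27), which binds zinc, lay between 1.94 and 2.85.

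The 19 accessory subunits of the membrane arm all rose with TMM, with log2 fold changes from 2.03 (Ndufc2) to 3.12 (Ndufa1), a median of 2.44 and adjusted p-values of at most 3.56e-05. Ndufa1, a small single-pass membrane subunit encoded on the X chromosome, had 247, 240.1 and 195 CPM in treated libraries, against 25.1, 27.1 and 26.4 CPM in controls (3.12 ± 0.16, adjusted p = 2.85e-07). Ndufa13, also known as GRIM-19 for its link to cell death induced by interferon and retinoic acid, had 475, 376 and 266 CPM in treated libraries and 55.1, 40.8 and 41.3 CPM in controls (3.02 ± 0.23, adjusted p = 1.31e-06). In both genes every treated library was far above every control. Up to 375 exonic bases of Ndufa13 lie on the strand opposite Tssk6, and the strand setting of the counting is not stated. Subunits with paired cysteine motifs that face the intermembrane space, Ndufa8 (2.14 ± 0.20), Ndufs5 (2.71 ± 0.24), Ndufb7 (2.39 ± 0.22) and Ndufb10 (2.18 ± 0.22), all rose and lay within the range of the arm. With ribosomal protein genes held equal, Ndufa8 and Ndufb10 had values of -0.22 and -0.19.

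Ndufab1, the mitochondrial acyl carrier protein, also serves fatty acid synthesis. It had 232, 154 and 123 CPM in treated libraries, against 46.5, 43.25 and 43.9 CPM in controls (1.93 ± 0.22, adjusted p = 1.59e-05), with no overlap. Its partners Ndufa6 and Ndufb9, which bind the acyl carrier within the enzyme, had log2 fold changes of 2.38 ± 0.21 and 2.44 ± 0.21. A pair of genes share the name but not the enzyme: Ndufa4 was reassigned to cytochrome c oxidase, and Ndufa4l2 is its paralog known as a target of hypoxia-inducible factor. Ndufa4 had 1114, 789 and 625 CPM in treated libraries and 108, 85.2 and 107 CPM in controls (3.07 ± 0.23, adjusted p = 1.11e-06), the highest counts of any member. Ndufa4l2 had 38.8, 46.2 and 33.0 CPM in treated libraries and 9.85, 6.79 and 7.94 CPM in controls (2.26 ± 0.22, adjusted p = 4.38e-06). In both genes every treated library lay above every control.

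The assembly factors did not move in 1 direction, and their shares called higher and lower were near those of all tested genes. Ndufaf2, a paralog of Ndufa12 that acts late in assembly, had 106, 79.1 and 61.1 CPM in treated libraries, against 21.7, 21.5 and 19.2 CPM in controls (1.98 ± 0.21, adjusted p = 8.61e-06). It shares 1955 exonic bases with a long non-coding RNA gene on the opposite strand, so reads of the 2 genes may not be told apart. Ndufaf3 and Ndufaf4 are known to act together in an early ubiquinone-module intermediate. Ndufaf3 had 31.7, 35.2 and 24.8 CPM in treated libraries and 9.40, 6.17 and 9.52 CPM in controls (1.87 ± 0.24, adjusted p = 2.96e-05). Ndufaf4 had 17.2, 20.0 and 28.8 CPM in treated libraries, against 30.6, 46.8 and 37.8 CPM in controls (-0.80 ± 0.24, adjusted p = 0.00923). With TMM scaling these partners therefore had opposite signs, each with no overlap between the groups, although the controls of Ndufaf4 were uneven. With ribosomal protein genes held equal Ndufaf3 was negative too (-0.48, adjusted p = 0.0835). An offset for principal transcript length put Ndufaf4 at -0.068 (adjusted p = 0.812).

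Ndufaf5, which hydroxylates Ndufs7, had 22.1, 17.7 and 18.5 CPM in treated libraries, against 8.40, 8.34 and 9.21 CPM in controls (1.17 ± 0.20, adjusted p = 0.000307). Ndufaf8, its stabilising partner, had 80.0, 60.4 and 46.1 CPM in treated libraries and 23.7, 15.6 and 18.7 CPM in controls (1.68 ± 0.24, adjusted p = 6.89e-05). With TMM scaling both members of this pair were thus higher in every treated library, while by library size Ndufaf5 had 0.12 (adjusted p = 0.604) and with mitochondrial mRNA held equal 0.60 (adjusted p = 0.155). Ndufaf7, a mitochondrial protein methyltransferase, had 7.77, 6.90 and 5.95 CPM in treated libraries, against 17.6, 16.7 and 17.9 CPM in controls (-1.34 ± 0.21, adjusted p = 0.000152), the lowest fold change of the 46. Ndufaf1, of the intermediate assembly complex that builds the membrane arm, had 7.42, 5.13 and 6.03 CPM in treated libraries and 14.7, 13.0 and 13.1 CPM in controls (-1.13 ± 0.23, adjusted p = 0.000971). For these the treated libraries were all lower. Ndufaf6, a factor of early assembly, had 10.9, 10.2 and 8.32 CPM in treated libraries and 10.8, 9.93 and 10.4 CPM in controls, and the groups overlapped (-0.09 ± 0.22, adjusted p = 0.718); its sign turned to values of 0.032 to 0.072 under 5 alternatives, none past the threshold, and it was called lower by library size (-1.14, adjusted p = 0.000697). With ribosomal protein genes held equal no assembly factor was called higher and 6 were called lower, near the 2.2% and 81.6% of all tested genes.

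**Figure D2:**
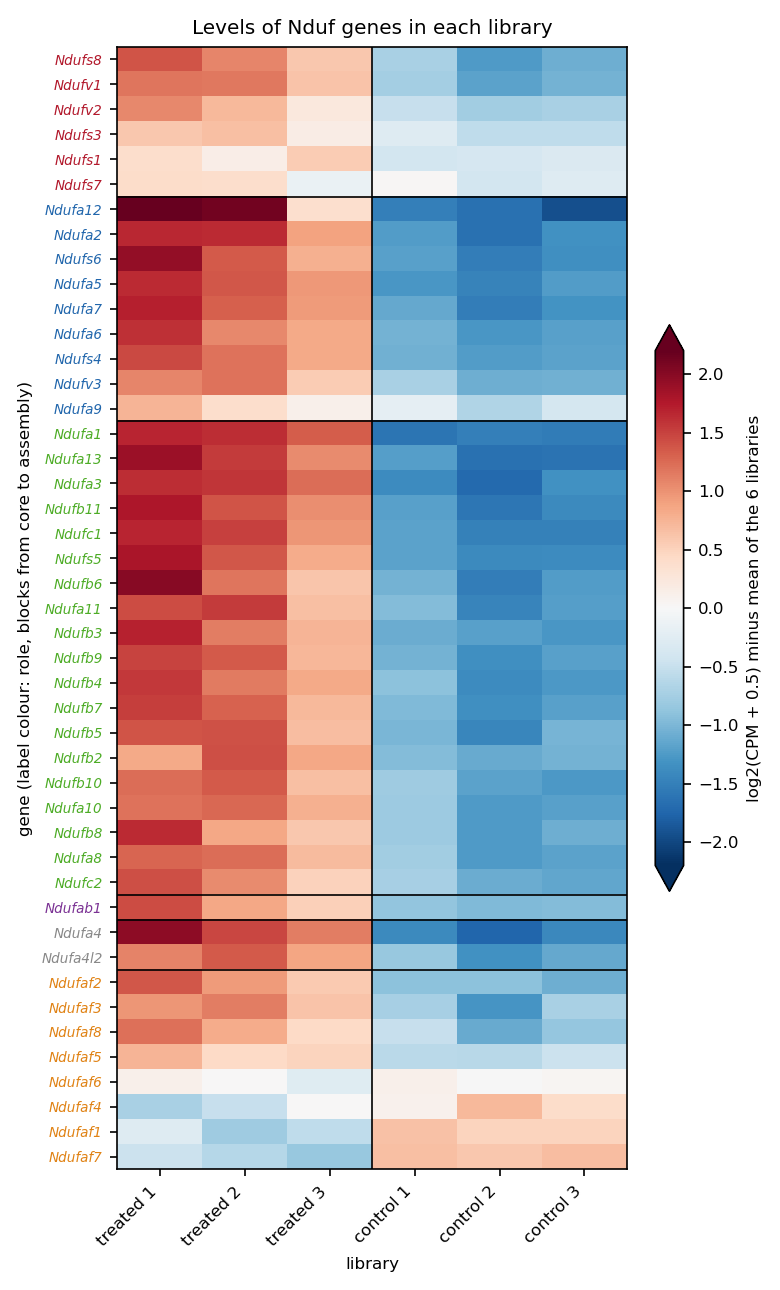
Level of 45 of the 46 Nduf genes (rows, grouped by role) in each of the 3 treated and 3 control libraries (columns), as log2(CPM + 0.5) with TMM scaling minus the mean of the gene over the 6 libraries; red is above and blue below that mean. Apart from Ndufs7, the structural genes drawn are red in the treated and blue in the control columns, and in most of them treated replicate 1 is the strongest red and treated replicate 3 the weakest; the last 3 assembly factors show the reverse; holding ribosomal protein genes equal would remove the shift of the median structural gene.

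The treated libraries were ordered alike across genes. Of the 38 structural genes, 29 were highest in treated replicate 1 and 36 lowest in treated replicate 3, and 34 were highest in control replicate 1 among the controls. Their summed level was 11676, 9585 and 6879 CPM in the treated libraries and 2151, 1692 and 1857 CPM in the controls. As a share of all counts, which needs no scaling factor, the 38 genes took 0.642% ± 0.0999 in treated libraries and 0.272% ± 0.0153 in controls (SD, n = 3 each). The 8 assembly factors took 0.0165% ± 0.00144 in treated libraries and 0.0197% ± 0.00136 in controls. Treated replicate 3 also had the highest TMM factor and the lowest ribosomal protein share of the treated libraries; the part of these in the order was not tested. Without treated replicate 3 the median structural gene had a log2 fold change of 2.50, and without treated replicate 1 it had 2.12.

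Differences between genes within a library do not depend on the scaling of that library. The mean log2 CPM per kilobase of deposited gene length of the 36 subunits of complex I, leaving out Ndufa4 and Ndufa4l2, exceeded that of the assembly factors by 3.70, 3.67 and 3.29 in the treated libraries and by 1.88, 1.68 and 1.70 in the controls. The lowest treated value was thus above the highest control value. Core subunits, on the same scale, lay 0.85, 0.74 and 0.57 below the 29 accessory subunits in the treated libraries, and 0.39 above them in each control. The order of the 2 kinds of subunit was therefore opposite in the groups. The spread of levels among the 36 subunits was wider after treatment, with an SD of 1.61, 1.51 and 1.47 log2 units in the treated libraries and 1.29, 1.24 and 1.27 in the controls.

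Per kilobase, Ndufa2 had the highest mean level in treated libraries, 615 ± 169 CPM per kilobase (SD, n = 3), and Ndufa1 followed with 543 ± 67.0, within the spread of Ndufa2. In controls Ndufa8 came first with 92.1 ± 17.1, and Ndufa2 second with 85.5 ± 12.1, again within the spread. Ndufs7 ranked 27 of the 36 subunits in treated libraries, with 71.6 ± 14.8 CPM per kilobase, and 8 in controls, with 52.5 ± 8.27. Ndufa12 ranked 19 in treated libraries, with 149 ± 92.0, and 31 in controls, with 11.7 ± 1.83. Ndufb2 was lowest in both, with 4.63 ± 1.16 in treated libraries and 1.02 ± 0.054 in controls. Deposited lengths equal the union of all GENCODE M21 exons for 42 of the 46 members. For 7 members, Ndufs1 and Ndufb5 among them, the deposited length is over 3 times the principal transcript, which lowers their level per kilobase in both groups.

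**Figure D3:**
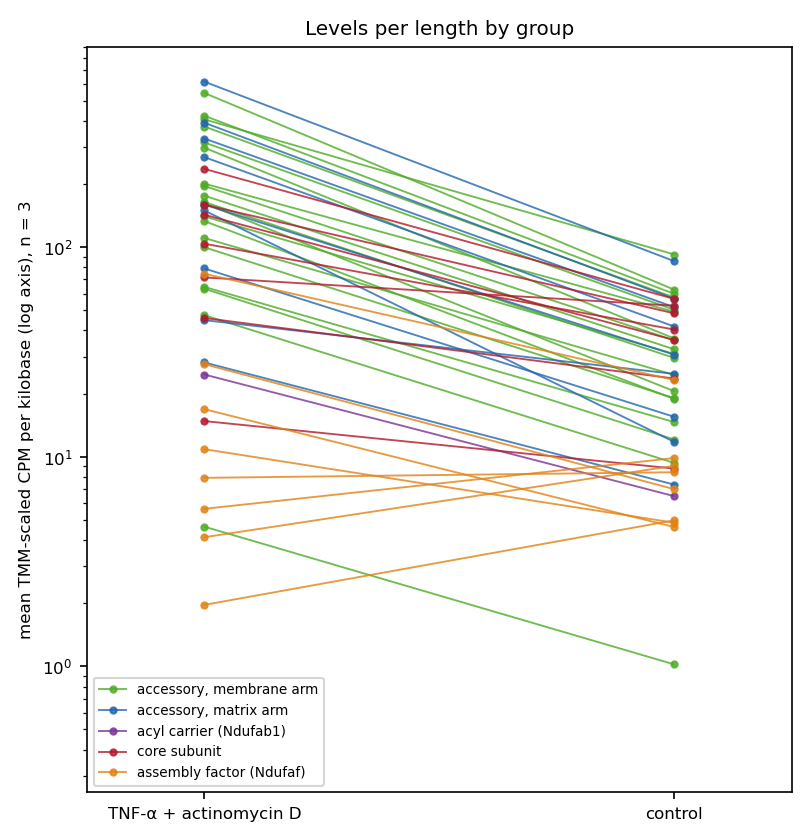
Mean level of each complex I subunit and assembly factor in CPM per kilobase of deposited gene length (vertical log axis, TMM scaling, n = 3 libraries), with 1 line per gene from the treated group on the left to the control group on the right, coloured by role. Most accessory subunits have steep lines, Ndufs7 is the flattest among the core subunits, and the 3 called lower among the assembly factors slope the other way; library-size scaling also puts Ndufs7, Ndufs1, Ndufs3 and Ndufa9 below their controls.

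Gene length moved with the fold change throughout the data. Across the 11448 tested protein-coding genes with a coding length, Spearman's rho between coding length and log2 fold change was -0.40, and across the 38 structural genes it was -0.76; these are correlations across genes of the same libraries, given as a description. Median coding lengths were 789 bases in core subunits, 411 in accessory subunits and 772.5 in assembly factors. In the shortest of 10 equal bins of protein-coding genes, with coding lengths of 75 to 519 bases, the median log2 fold change was 1.57, and 21 of the 29 accessory subunits fell in it. Set against the median of their own length bin, all 29 accessory subunits, 6 of 7 core subunits (not Ndufs7) and 4 of 8 assembly factors were higher. The median excess was 1.22 for accessory subunits, 1.48 for core subunits and 0.01 for assembly factors. The order of the core and accessory subunits depended on the length used: with an offset on deposited gene length their medians were 0.86 and 1.61, so the core subunits were then lower.

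An offset for the trend of all tested genes on deposited gene length left 35 structural genes higher, none lower and a median of 1.49 relative to that trend, where 35.4% of tested genes were called higher and 33.2% lower. Ndufs7 had -0.27, Ndufa9 0.33 and Ndufc2 0.54, none past the threshold. Among the assembly factors Ndufaf2, Ndufaf3 and Ndufaf5 remained higher and Ndufaf1 and Ndufaf7 lower. Ndufaf6 was then called lower (-1.13, adjusted p = 0.000795), while Ndufaf4 (-0.52, adjusted p = 0.0688) and Ndufaf8 (0.28, adjusted p = 0.302) no longer passed. With an offset on principal transcript length, chosen after seeing the data, the gap between the medians of structural genes and assembly factors was 0.99, against 1.83 without an offset, 33 structural genes were called higher and 1 lower, and 1 assembly factor was called higher, where 34.6% of tested genes were called higher and 32.4% lower.

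**Figure D4:**
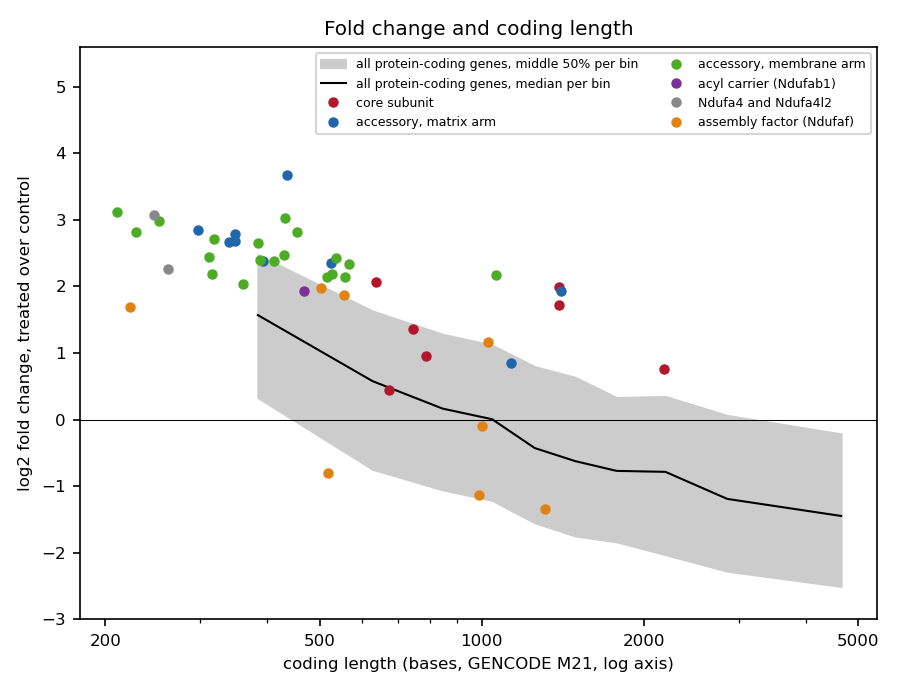
Log2 fold change (treated over control, TMM, vertical axis) against coding length in bases (horizontal log axis) for the 46 Nduf genes, coloured by role, over the median and the middle 50% of all tested protein-coding genes in 10 bins of equal size. By bin, 37 of 38 structural genes lie above the median of their bin and 25 above its middle 50%, while 4 of the 8 assembly factors lie below the median of their bin. The black median line and grey band run between bin median lengths, from 384 to 4647 bases, so the shortest genes lie to their left.

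The mitochondrially encoded subunits and the rest of the respiratory chain were examined alongside. The 7 mitochondrially encoded core subunits had a median log2 fold change of 0.33. The 7 nuclear core subunits had 1.36, and all 38 nuclear structural genes, most of them accessory, had 2.37. Only mt-Nd6, the one on the light strand, passed the test, with 298, 343 and 308 CPM in treated libraries, against 140.1, 145 and 102 CPM in controls (1.29 ± 0.17, adjusted p = 4.17e-05). With the length offset mt-Nd6 was called lower (-0.48, adjusted p = 0.0257). The genes mt-Nd1, mt-Nd2, mt-Nd4 and mt-Nd5 had log2 fold changes of 0.01 to 0.55 with overlapping groups, and mt-Nd3 and mt-Nd4l were at most 1.26 CPM in any library. By library size none of the 7 was called higher and 3 were called lower, where 17.1% of tested genes were called higher and 59.6% lower.

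Of 13 complex I assembly factors with other names, 4 rose and 5 fell, shares near the 34.6% and 40.2% of all tested genes, with a median of 0.02. Lyrm2 had 25.3, 25.2 and 17.3 CPM in treated libraries and 8.32, 7.19 and 6.16 CPM in controls (1.64 ± 0.23, adjusted p = 6.97e-05), and Dmac1, of the distal membrane arm, had a log2 fold change of 1.21 ± 0.18. Tmem186, of the same intermediate assembly complex as Ndufaf1, had 1.50, 3.01 and 4.20 CPM in treated libraries and 16.3, 13.7 and 15.0 CPM in controls (-2.36 ± 0.33, adjusted p = 6.31e-05). Chchd4, which oxidises cysteine-rich proteins in the intermembrane space, had 8.12, 8.57 and 6.41 CPM in treated libraries and 38.0, 29.3 and 29.3 CPM in controls (-2.07 ± 0.21, adjusted p = 6.77e-06). In that intermediate assembly complex Acad9 was also lower (-0.75 ± 0.20, adjusted p = 0.00479), while Ecsit had 0.02 ± 0.17 and Tmem126b -0.34 ± 0.23, neither past the threshold.

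Subunits and assembly factors of the other complexes were counted in the same way. The 4 subunits of complex II all rose (1.46 to 2.25), and among its 4 assembly factors Sdhaf4 rose (2.59 ± 0.28) and Sdhaf3 fell (-1.30 ± 0.37). All 40 tested subunits of complexes III, IV and V rose, with a median of 2.62, against 8 higher and 8 lower among 25 tested assembly factors of these complexes and a median of -0.07, shares again near those of all tested genes. Among those factors Pet100 (2.79 ± 0.27) and Uqcc2 (2.68 ± 0.23) rose most, and Coa7 (-2.89 ± 0.43) and Sco1 (-2.26 ± 0.26), which handles copper, fell most. The median deposited length was 1568.5 bases for the subunits and 2710 bases for the factors. With ribosomal protein genes held equal, the subunits of complexes III, IV and V had 14 called higher and 9 lower, and the 4 complex II subunits had 3 called lower. With that scaling 2.2% of tested genes were called higher and 81.6% lower.

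Regulators of mitochondrial biogenesis were lower: 8 of 10 fell and none rose, where 40.2% of tested genes were called lower and 34.6% higher. The coactivator gene Pprc1 had 6.89, 5.75 and 11.1 CPM in treated libraries, against 134, 123 and 126 CPM in controls (-4.00 ± 0.24, adjusted p = 4.62e-07). Ppargc1b, a related coactivator, had 0.0883, 0.177 and 0.382 CPM in treated libraries and 5.75, 7.19 and 7.94 CPM in controls (-4.93 ± 0.45, adjusted p = 3.1e-06). Nrf1, which encodes a transcription factor of respiratory genes, had a log2 fold change of -2.60 ± 0.24, Tfam, the mitochondrial transcription factor, of -2.88 ± 0.19, and Polrmt, the mitochondrial RNA polymerase, of -3.66 ± 0.22. The groups did not overlap for any of these. These genes are longer than the subunits, with a median deposited length of 5186 bases against 1635 for the 36 complex I subunits. With the length offset 7 of the 10 were called lower and none higher, where 33.2% of tested genes were called lower and 35.4% higher.

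**Figure D5:**
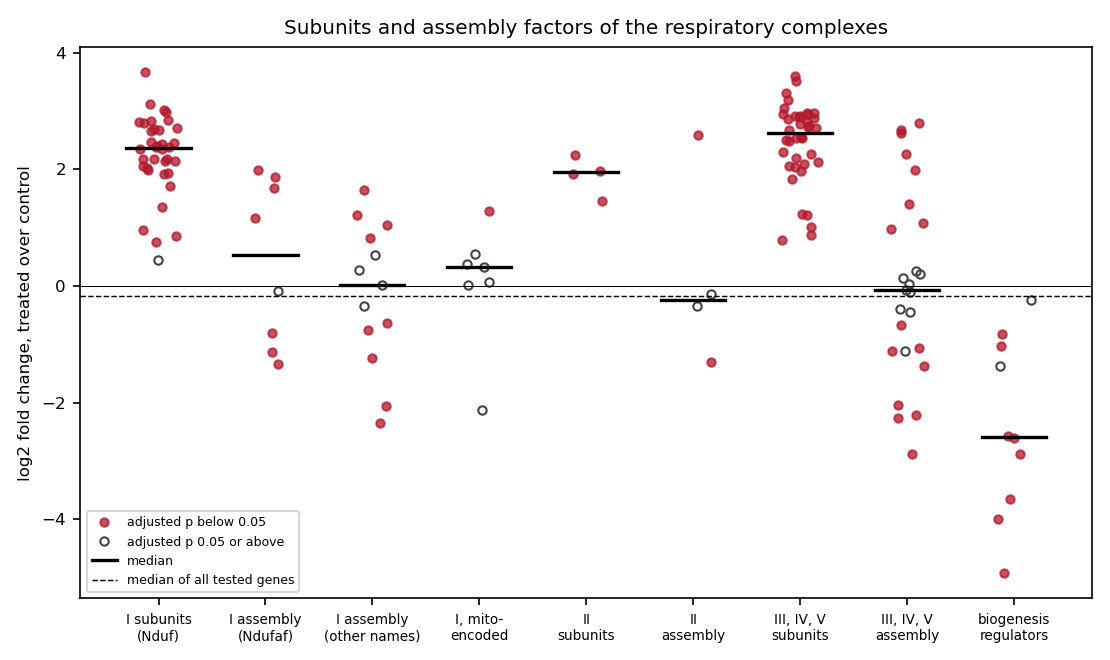
Log2 fold change (treated over control, TMM, vertical axis) of each tested gene, by list: Nduf subunits of complex I, Ndufaf factors, other complex I assembly factors, mitochondrially encoded complex I subunits, subunits and assembly factors of complex II and of complexes III to V, and biogenesis regulators. Filled points passed the test, open points did not, bars are list medians and the dashed line is the median of all tested genes; the nuclear subunit lists have medians of 1.95 to 2.62, the mitochondrially encoded subunits of 0.33 and the assembly lists of -0.24 to 0.54, and holding ribosomal protein genes equal puts the median of the complex I structural genes at -0.013.

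Promoter sequence was read for members that moved together or apart, from 300-base windows of RefSeq (GRCm38.p6) that span 250 bases before to 50 after the annotated start. Windows matched 40 of the 46 genes by symbol, 33 structural and 7 assembly. Each was searched on both strands for 4 motifs that bind regulators of respiratory genes: GCGC and TGCGC with 1 base between them (NRF1), CCGGAAG (ETS family and GABPA), AANATGGC (YY1) and AAGGTCA (estrogen-related receptors), none of which contains another. The YY1 motif was in 14 of 40 genes (35%), against 6.05% of all 32851 windows, and the NRF1 motif in 9 of 40 (22.5%), against 4.6%. The ETS motif was in 6 genes (15%), against 8.86%, and the receptor motif in 3 (7.5%), against 4.72%. At least 1 of the 4 was present in 24 of the 36 genes called higher and 2 of the 3 called lower, against 21.5% of all windows, so the motifs occurred in both sets. A match is a description of these letters and does not show binding.

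The windows below show 3 structural genes and 3 assembly factors of both directions, from 150 bases before to 30 after the start, 5′ to 3′ on the strand of the gene, with motif matches in capitals. Ndufa3 (2.98 ± 0.18; chr7:3617223-3617402, forward strand) carries the YY1 motif just past its start, as do several other subunits. Ndufb4 (2.39 ± 0.21; chr16:37654339-37654518, reverse) carries NRF1 and receptor motifs. Ndufs3 (0.96 ± 0.17; chr2:90904692-90904871, reverse) carries the ETS motif on both strands. Ndufaf8, which rose (chr11:120098784-120098963, forward), carries ETS and YY1 motifs. Ndufaf1 (chr2:119662805-119662984, reverse), lower in treated cells, carries an ETS motif. Ndufaf4 (chr4:24897933-24898112, forward), also lower, carries an NRF1 motif. Every gene shown has a match, so these windows do not stand for all members. Ndufa12, Ndufa1, Ndufa4 and Ndufa13, which rose most with TMM, and Ndufaf7, which fell most, had none of the motifs in their windows.
Ndufa3: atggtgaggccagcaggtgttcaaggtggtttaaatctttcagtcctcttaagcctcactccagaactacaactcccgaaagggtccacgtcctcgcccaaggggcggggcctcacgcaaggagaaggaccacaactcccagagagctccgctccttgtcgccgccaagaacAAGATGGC
Ndufb4: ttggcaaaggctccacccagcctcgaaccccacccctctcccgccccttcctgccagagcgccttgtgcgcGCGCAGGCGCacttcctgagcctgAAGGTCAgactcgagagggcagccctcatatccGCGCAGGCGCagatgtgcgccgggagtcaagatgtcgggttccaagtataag
Ndufs3: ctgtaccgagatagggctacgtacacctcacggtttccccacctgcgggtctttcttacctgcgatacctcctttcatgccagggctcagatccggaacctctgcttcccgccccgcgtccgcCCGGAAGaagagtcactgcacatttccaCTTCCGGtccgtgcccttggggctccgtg
Ndufaf8: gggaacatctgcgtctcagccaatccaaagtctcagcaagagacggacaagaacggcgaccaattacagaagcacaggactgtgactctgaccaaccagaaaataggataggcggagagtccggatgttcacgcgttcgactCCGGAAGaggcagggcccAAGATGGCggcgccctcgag
Ndufaf1: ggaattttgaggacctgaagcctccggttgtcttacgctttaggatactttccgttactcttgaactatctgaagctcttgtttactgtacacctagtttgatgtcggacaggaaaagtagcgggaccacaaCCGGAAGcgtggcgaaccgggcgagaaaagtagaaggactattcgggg
Ndufaf4: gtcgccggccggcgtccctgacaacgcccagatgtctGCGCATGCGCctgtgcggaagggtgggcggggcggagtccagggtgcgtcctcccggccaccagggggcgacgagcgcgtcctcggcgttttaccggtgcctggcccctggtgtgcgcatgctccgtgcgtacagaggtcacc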

How the data were processed

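RNA-seq of 6 L929 libraries was analysed (3 treated, 3 control). Per the file headers, the authors deposited a table of whole-number counts per gene and a table of FPKM, both with a deposited gene length in bases (another quantity, not a measurement). Per the submitters' processing notes, the builds were GRCm38 and mm10 and the tools DESeq2 1.24.0, RSEM 1.3.1 and HISAT2 2.1.0, with no role or order; no source used here gives the strand setting. The deposited FPKM were 1.22 to 1.64 times the value given by library totals in treated libraries and 0.635 to 0.719 times in controls, so a further factor per library had been applied. Deposited length equalled the exon union of GENCODE M21 for 42 of 46 members.

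Counts were filtered with filterByExpr (13290 of 24708 genes with a count), scaled by TMM and tested with edgeR 4.0.16 (robust quasi-likelihood, R 4.3.3), with Benjamini-Hochberg adjustment over all tested genes at 0.05; log2 fold changes are treated over control with SE, and CPM are TMM-scaled. The length offset was a lowess trend (span 0.3) of log2 fold change on log2 length. Fits were also run on simulated data in which few genes changed, equally up and down, apart from a length trend in some runs. That does not test the choice of scaling. Alternatives used DESeq2 1.42.0, limma 3.58.1 (voom, or log2(FPKM + 1) and log2(FPKM + 0.1) with a mean FPKM of at least 1), other scalings, filters, length offsets and the loss of each library. Scaling on fixed genes used 83 ribosomal protein or 13 mitochondrial mRNA genes. Same-numbered treated and control libraries correlated at 0.22, -0.14 and 0.029 in their deviations from the group means, and numbers were not taken as pairs. With so few libraries a group, these correlations cannot exclude pairing. 1 member is counted in the totals and not reported singly here. Members, roles and lists were chosen with earlier results of these data known. Values per library were given for 6 core subunits, assembly factors, Ndufab1, Ndufa4, Ndufa4l2 and the 4 structural genes with the largest and the 4 with the smallest change; from each comparison list up to 2 of the largest called rises and falls above a mean of 1 CPM were named. Other genes named, Nrf1, Tfam and Polrmt among them, were chosen after their values were seen.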

Additional observations from a re-analysis of the deposited data

How the results depend on the processing

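Each result was recomputed under 22 alternatives. Of 990 recomputed fold changes of 45 members, 909 kept their direction and their side of the threshold, 31 kept the direction but no longer passed, 13 passed anew and 37 changed sign, 23 of these with ribosomal protein genes held equal. Unless named, the cause of a change was not tested.

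In settings near TMM the median of the assembly factors was 0.66 with median-ratio factors, 0.66 with DESeq2, 0.70 with upper-quartile factors, 0.67 with a stricter filter, 0.67 among protein-coding genes and 0.38 with no filter, and Ndufaf6 had 0.033, 0.032, 0.072, 0.043 and 0.045 in the first 5. In those 5 Ndufs7 passed too (0.58 to 0.61), so that all 38 structural genes were called higher. Of the mitochondrially encoded subunits, 2 were called higher in each of those 5 settings and with limma-voom, and 1 was called lower with limma-voom and with FPKM at either pseudocount. The single lower complex II assembly factor became 0 with FPKM at either pseudocount and with the stricter filter, where fewer genes are tested.

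By library size 2276 genes (17.1%) were called higher and 7924 (59.6%) lower. The structural median was 1.30, with 1 called lower, and the assembly median -0.51; Ndufs7 had -0.61, Ndufs1 -0.28, Ndufs3 -0.10 and Ndufa9 -0.20. Called higher and lower were 0 and 3 mitochondrially encoded subunits, 1 and 8 other complex I assembly factors, and 4 and 17 factors of complexes III to V, with 3 complex II factors lower. With mitochondrial mRNA held equal 2561 genes (19.3%) were called higher and 6199 (46.6%) lower. The structural median was then 1.80, the assembly median -0.022 and Ndufs7 -0.13. Of the lists, 0 mitochondrially encoded subunits were higher and 1 lower, with 1 other complex I factor and 5 factors of complexes III to V higher.

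With ribosomal protein genes held equal 293 genes (2.2%) were called higher and 10846 (81.6%) lower. The structural median was -0.013, with 8 higher and 8 lower, and the assembly median -1.82, with 0 higher and 6 lower. Called higher and lower were 0 and 7 mitochondrially encoded subunits, 0 and 12 other complex I factors, 14 and 9 subunits and 0 and 20 factors of complexes III to V, and 0 and 3 complex II subunits and 0 and 3 of its factors. Log2 fold changes were Ndufs7 -1.92, Ndufs1 -1.56, Ndufa9 -1.51, Ndufs3 -1.41, Ndufaf5 -1.18, Ndufv2 -1.03, Ndufaf8 -0.68, Ndufaf3 -0.48, Ndufab1 -0.47, Ndufv3 -0.43, Ndufaf2 -0.41, Ndufv1 -0.38, Ndufc2 -0.36, Ndufs8 -0.31, Ndufb8 -0.25, Ndufa8 -0.22, Ndufb10 -0.19, Ndufa10 -0.19, Ndufb2 -0.17, Ndufa4l2 -0.081, Ndufb5 -0.037, Ndufs4 -0.025 and Ndufa6 -0.00044.

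Of all tested genes, the gene length offset called 35.4% higher and 33.2% lower, and principal transcript length 34.6% and 32.4%. With the gene length offset the structural median was 1.49, the assembly median -0.12 and Ndufs7 -0.27. Of the lists, 0 mitochondrially encoded subunits were higher and 5 lower, 2 other complex I factors higher and 3 lower, and 0 complex II factors lower. Principal transcript length, chosen after seeing the data, gave 1.05 and 0.062 for the medians, 0.99 for their difference, 1 structural gene lower, 1 assembly factor higher, 0 higher and 5 lower mitochondrially encoded subunits, 2 other complex I factors higher, 0 complex II factors lower, Ndufs3 -0.16 and Ndufs7 -0.75.

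Replicate numbers were not taken as pairs, though pairing was not excluded. As a block they called Ndufs7 (0.44) and 3 mitochondrially encoded subunits higher, and changed no other member's call. Block and gene length offset together gave medians of 1.50 and -0.10, Ndufs7 -0.25, 2 assembly factors higher, 0 higher and 6 lower mitochondrially encoded subunits, 2 higher and 3 lower other complex I factors and 0 complex II factors lower.

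Leaving out 1 library gave 37 to 38 structural genes and 4 assembly factors higher, 3 assembly factors lower, an assembly median of 0.36 to 0.57, and 1 to 3 higher and 0 to 1 lower mitochondrially encoded subunits. With 3 libraries a group, whether the number of libraries limited the call of Ndufs7 was not tested, and counts of the least abundant factors carry the widest counting error.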

Other observations

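Rows of other gene types carry Nduf names too and were kept out of the counts of members. Ndufb1-ps, annotated as a bidirectional promoter long non-coding RNA on chromosome 12, had 2138, 1655 and 1708 counts in treated libraries, against 563, 550 and 593 counts in controls (log2 fold change 2.75 ± 0.18 with TMM, adjusted p = 5.39e-07), with every treated library above every control. The processed pseudogene Ndufab1-ps had 276, 397 and 252 counts in treated libraries and 185, 157 and 177 counts in controls (1.90 ± 0.25 with TMM, adjusted p = 4.04e-05). Ndufs6b, another processed pseudogene, had 146, 15 and 31 counts in treated libraries and 11, 14 and 4 in controls (3.78 ± 0.85 with TMM, adjusted p = 0.00214), so treated replicate 1 carried most of its counts. Ndufb4c had 73, 32 and 20 counts in treated libraries and 14, 12 and 24 in controls (2.40 ± 0.55 with TMM, adjusted p = 0.00232). After TMM scaling every treated library of Ndufb4c was above every control. Reads of Ndufab1, Ndufs6 and Ndufb4 may be split with these copies; no source used here says how such reads were counted. Of the 46 members, 17 share exonic bases with a gene on the opposite strand and 3 with a gene on the same strand.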
